A study of Mus musculus with 8 samples.

Results

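Bone marrow-derived macrophages (BMDM) were examined for 10 genes of the TGF-beta and BMP pathway, out of 53819 gene rows in the count table. The genes encode a ligand (*Tgfb1*), a protein that binds the latent ligand (*Ltbp3*), the TGF-beta receptors (*Tgfbr1* and *Tgfbr2*), a signal-carrying SMAD (*Smad3*), the inhibitory SMADs (*Smad6* and *Smad7*) and the ID target genes (*Id1*, *Id2* and *Id3*). They were taken from the table by symbol, and the list was chosen with the difference between bilirubin and vehicle cultures in these same libraries already known. The differences of the 10 genes below are therefore a description without p-values, and where the text says that a gene passed the threshold of the fit over all genes, this supports nothing about the gene. All 10 genes passed the filter on low counts and were among the 13722 genes tested.

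Marrow of 4 female BALB/cJ mice aged 8 weeks was grown with the growth factor M-CSF at 25 ng/mL, which drives marrow cells to become macrophages, for 5 days. A culture of each mouse then received 2.5 µM bilirubin, the end product of heme breakdown, and another received DMSO as vehicle, for 48 h, giving 4 bilirubin and 4 vehicle libraries of poly-A RNA. The comparison addressed whether exogenous bilirubin alters macrophages, and it was made within mice, since both cultures of a mouse came from the same animal. These are macrophages made in culture from a single inbred strain and sex, with no other cell type, dose or time examined here.

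TGF-beta is secreted in a latent form held by its own propeptide and by latent TGF-beta binding proteins. Once released, it joins the receptors TGFBR2 and TGFBR1, and the kinase of the latter phosphorylates SMAD2 and SMAD3, which enter the nucleus with SMAD4. BMP ligands act through related receptors on SMAD1, SMAD5 and SMAD9 and switch on the *Id* genes, whose proteins bind E proteins and keep them off DNA, while SMAD6 and SMAD7 are induced by the pathway and restrain it. In macrophages TGF-beta is known both as a product released during the clearance of dead cells and as a signal that tissue-resident phagocytes need.

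Library depth lay between 34142781 and 47071714 counts on genes, and no library stood in for another, since every pair of replicate libraries differed by more than counting noise. As a measure of this, the chi-square per degree of freedom between vehicle cultures was 5.80 to 11.4. It was 29.0 to 44.4 for the bilirubin culture of mouse 1 against the other bilirubin cultures. Among those others it was 6.70 to 15.8, so the mouse 1 culture stood apart over the whole library. The first principal component, with 30.5% of the variance, placed all 4 bilirubin libraries above all 4 vehicle libraries. The label of the cells was checked against markers. The summed level of 8 macrophage markers was 23986 to 24255 CPM (counts relative to the library total, scaled by the TMM method) in vehicle and 28289 to 30298 in bilirubin cultures. Most of this sum was *Lyz2* (means of 19145 and 24369 CPM), which rose as *Adgre1* and *Itgam* did, whereas *Csf1r*, *Cd68*, *Mertk*, *Fcgr1* and *Mrc1* had log2 fold changes of -0.02 to -0.40 and were not called. In mouse 1 alone *Csf1r*, *Fcgr1* and *Mrc1* were higher with bilirubin (log2 differences of 0.26, 0.40 and 0.35), whereas *Cd68* and *Mertk* were lower in all 4 mice. Of the markers of other cells, 7 stromal genes summed to at most 8.05 CPM with *Lum* at 0, and 6 lymphocyte genes summed to at most 0.0575 CPM. The 5 endothelial genes summed to 13.3 to 15.1 CPM in vehicle and 9.88 to 18.5 in bilirubin cultures. This was nearly all *Kdr* (means of 12.2 and 12.6 CPM), since the other 4 were under 3 CPM in every library. The 8 neutrophil genes summed to 11.1 to 13.7 CPM in vehicle and 19.9 to 32.4 in bilirubin cultures, which was nearly all *S100a8* (means of 11.5 and 24.4 CPM), since the other 7 were under 3 CPM in every library. The 4 megakaryocyte genes summed to 51.6 to 61.7 and 33.7 to 43.0 CPM, which was nearly all *Pf4* (means of 56.2 and 38.8 CPM), since the other 3 were under 3 CPM, with *Gp1bb* at 0. The part of these shifts in the results below was not tested, and in bulk RNA fewer cells of a type and less RNA per cell cannot be told apart.

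The 10 genes were expressed at very different levels per transcript length in vehicle cultures. In TPM, which scales counts by transcript length and by library, *Id2* was the most abundant at 360 ± 3.3 (SD, n = 4) and *Tgfb1* followed at 306 ± 5.5. *Id1* was at 217 ± 5.1, *Tgfbr2* at 117 ± 5.0, *Id3* at 114 ± 8.5 and *Tgfbr1* at 59.0 ± 3.5 TPM. *Smad6* was at 28.9 ± 0.70, *Ltbp3* at 22.2 ± 2.1, *Smad7* at 20.4 ± 2.7 and *Smad3* at 2.93 ± 0.95 TPM. The ranges of neighbours in this order did not overlap, with the exceptions of *Tgfbr2* with *Id3* and of *Ltbp3* with *Smad7*. *Id2* was above 97.3% of the tested genes, whereas *Smad3* was above 23.7%. Thus the ligand and the ID transcripts were among the abundant mRNAs of these macrophages, and the SMAD3 transcript was scarce. In the summed TPM of the 10 genes, *Id2* made up 28.9%, *Tgfb1* 24.5% and *Id1* 17.4%.

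**Figure D1:**
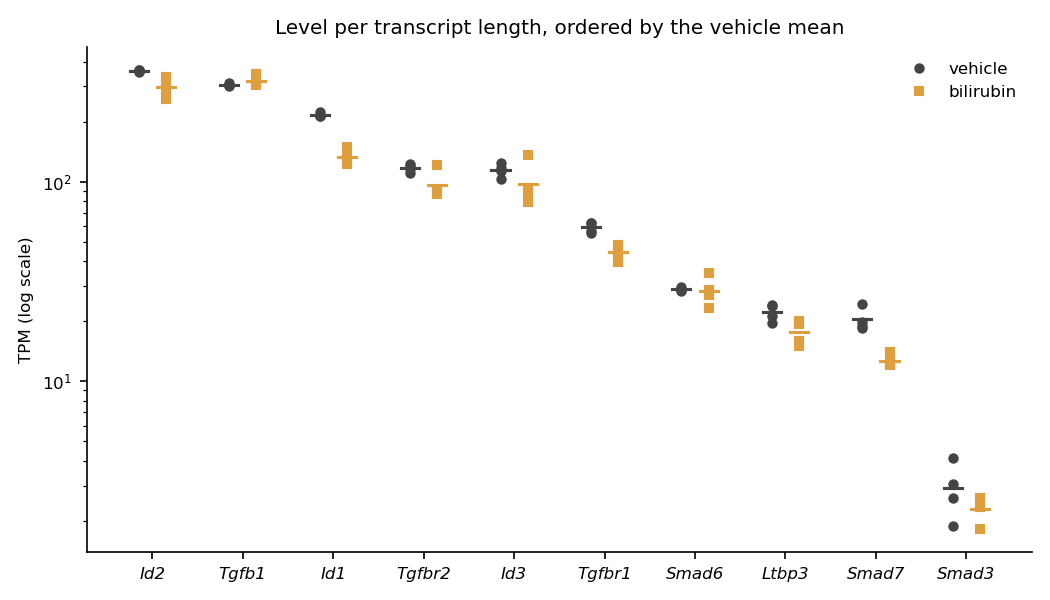
Level of the 10 genes per transcript length. The y axis is TPM on a log scale, each point is 1 library (circles, 4 vehicle; squares, 4 bilirubin) and the short line is the group mean. Genes are ordered by the vehicle mean, from *Id2* at 360 TPM down to *Smad3* at 2.93 TPM. The bilirubin squares of *Id2*, *Id1*, *Tgfbr1* and *Smad7* lie below all of their vehicle circles.

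*Tgfbr1*, *Tgfbr2*, *Ltbp3*, *Smad7*, *Id1* and *Id2* had lower values with bilirubin in all 4 mice and *Id3* in 3 of 4, while *Smad3* and *Smad6* differed in direction between mice. *Tgfb1* had slightly higher values in all 4 mice but was not called. *Id1* showed the largest difference of the 10 genes, with a log2 fold change of -0.66, followed by *Smad7* at -0.60 and *Tgfbr1* at -0.34. A gene was called where the quasi-likelihood test of edgeR gave a p under 0.05 after Benjamini-Hochberg adjustment over all tested genes. By it 6 of the 10 genes were called, all of them lower, where 7.53% of all tested genes were called in either direction, 3.04% lower and 4.49% higher. The list was chosen on this contrast, so nothing is read from that count. The median log2 fold change was -0.25 over the 10 genes and -0.0018 over all tested genes. For 6 of the 10 genes the CPM of the groups did not overlap (5 lower, 1 higher), as for 10.6% of all tested genes. In TPM the groups of *Tgfb1* overlapped (301 to 314 in vehicle, 305 to 345 in bilirubin cultures). Those of *Ltbp3* did as well (19.7 to 24.2 and 15.1 to 20.1 TPM). *Tgfbr1*, *Smad7* and *Id1* were called in all 12 alternative analyses, *Ltbp3* in 10, and *Tgfbr2* and *Id2* in 7. Leaving out mice 1 to 4 in turn gave 7, 4, 3 and 3 called genes. *Tgfbr2* and *Id2* were the calls lost without mouse 2, and *Ltbp3* was lost as well without mouse 3 or 4.

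**Figure D2:**
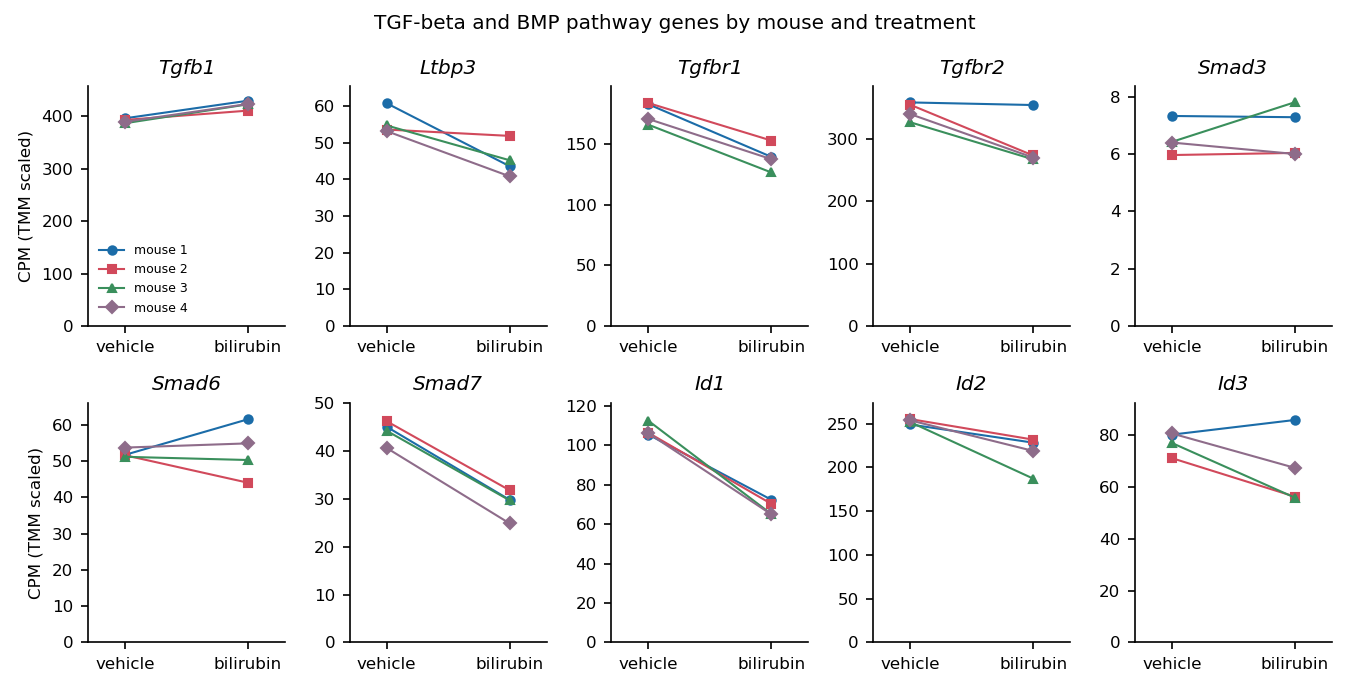
Level of each of the 10 genes in every library. The y axis is TMM-scaled CPM from 0, each line joins the vehicle and the bilirubin culture of 1 mouse, and each panel has its own scale. All 4 lines fall for *Ltbp3*, *Tgfbr1*, *Tgfbr2*, *Smad7*, *Id1* and *Id2*, all 4 rise slightly for *Tgfb1*, and the lines of *Smad3*, *Smad6* and *Id3* run in both directions.

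*Tgfb1* (ENSMUSG00000002603, chr7:25386390-25404506, plus strand, GRCm39) encodes the TGF-beta ligand that macrophages make. Vehicle cultures of mice 1 to 4 held 396, 393, 387 and 389.8 CPM and bilirubin cultures held 430.0, 411, 423 and 424 CPM. The bilirubin values were all above the vehicle values, by a narrow margin between 396 and 411 CPM. The log2 fold change was 0.11 ± 0.03 (SE), or 7.75% in linear terms, and it stayed between 0.08 and 0.12 over the alternative analyses without a call in any. The replicate spread was small, with a coefficient of variation of 1.05% in vehicle and 1.88% in bilirubin cultures. At least 98.4% of the *Tgfb1* TPM in every library came from a single transcript.

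*Ltbp3* (ENSMUSG00000024940, chr19:5790932-5808669, plus strand) encodes a binding protein that is linked to latent TGF-beta and helps its secretion. It was at 60.8, 53.6, 54.8 and 53.2 CPM in the vehicle cultures of mice 1 to 4 and at 43.6, 51.9, 45.2 and 40.9 CPM in the bilirubin cultures. The groups did not overlap in CPM, though they did in TPM. The pair of mouse 2 differed little, with a log2 difference of -0.05 against -0.28 to -0.48 in the other mice. The fitted log2 fold change was -0.30 ± 0.07 (SE).

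*Tgfbr1* (ENSMUSG00000007613, chr4:47353134-47414931, plus strand) encodes the receptor kinase that phosphorylates SMAD2 and SMAD3. Its vehicle levels were 183, 184, 166 and 171 CPM in mice 1 to 4 and its bilirubin levels were 140, 153, 127 and 138 CPM. Every bilirubin culture was below every vehicle culture, and the log2 difference within mice lay between -0.27 and -0.39. The fit gave -0.34 ± 0.04 (SE), a change of -21.0%, and the mice differed from each other less for this gene (SD 0.062 over the 4 log2 differences) than for any other of the 10 except *Tgfb1* (SD 0.030). The share of the main *Tgfbr1* transcript in the TPM of the gene was 68.8% to 72.2% in vehicle and 69.5% to 76.0% in bilirubin cultures, so the ranges overlapped.

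*Tgfbr2* (ENSMUSG00000032440, chr9:115913361-116004800, minus strand) encodes the receptor that binds the ligand and activates TGFBR1. Vehicle cultures of mice 1 to 4 were at 359, 356, 327 and 341 CPM and bilirubin cultures at 355, 274, 268 and 271 CPM. The bilirubin culture of mouse 1 stayed at the vehicle level, so the groups overlapped, whereas the other 3 bilirubin cultures lay together below all vehicle cultures. The log2 difference was -0.02 in mouse 1 and -0.29 to -0.38 in the others, with a fitted value of -0.25 ± 0.06 (SE). Without mouse 1 the fitted value was -0.34. Both annotated *Tgfbr2* transcripts were used in a steady proportion, the main one at 70.9% to 73.7% of TPM in every library of either group. The TPM ratio of *Tgfbr2* to *Tgfbr1* was 1.94 to 2.04 in vehicle and 1.86 to 2.52 in bilirubin cultures, and these ranges overlapped.

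The start regions of the receptors are shown because both receptor transcripts were lower with bilirubin and because SMAD complexes bind short elements in DNA. Capitals mark CAGAC, an element of SMAD3 and SMAD4, or GGCGCC, a GC-rich SMAD element, searched on both strands (the former also as GTCTG), with no overlapping matches in the windows shown. Each window runs from 250 bases before to 50 bases after a RefSeq start (GRCm38.p6), and 8 of the 10 genes had an entry. The *Tgfbr1* window is chr4:47352972-47353271 on the plus strand and the *Tgfbr2* window is chr9:116175314-116175613 on the minus strand, both 5′ to 3′:
*Tgfbr1*: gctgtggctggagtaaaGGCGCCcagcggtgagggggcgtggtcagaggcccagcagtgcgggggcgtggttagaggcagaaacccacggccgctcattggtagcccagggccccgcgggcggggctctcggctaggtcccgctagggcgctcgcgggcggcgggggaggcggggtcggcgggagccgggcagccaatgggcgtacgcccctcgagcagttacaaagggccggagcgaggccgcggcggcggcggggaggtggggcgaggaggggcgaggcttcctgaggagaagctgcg
*Tgfbr2*: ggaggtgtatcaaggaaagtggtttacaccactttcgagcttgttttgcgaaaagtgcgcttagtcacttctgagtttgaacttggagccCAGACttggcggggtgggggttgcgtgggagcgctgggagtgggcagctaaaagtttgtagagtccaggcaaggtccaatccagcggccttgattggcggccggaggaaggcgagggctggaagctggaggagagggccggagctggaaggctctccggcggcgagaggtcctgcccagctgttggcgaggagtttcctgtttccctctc

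The *Tgfbr1* window held 1 GGCGCC at 233 bases before the start and had 74.7% G and C, and the *Tgfbr2* window held 1 CAGAC at 160 bases before the start and had 59.0% G and C. CAGAC was present in 49.6% of all 32851 RefSeq windows and GGCGCC in 11.9%. Of the 9 windows of the 10 genes, 4 held CAGAC (*Ltbp3*, *Tgfbr2*, *Id3* and a second *Tgfbr1* start) and 2 held GGCGCC (*Tgfbr1* and *Id2*), while the windows of *Tgfb1*, *Smad3* and *Smad6* held neither. These matches are a description of letters, and the binding of no factor was measured.

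*Smad3* (ENSMUSG00000032402, chr9:63554049-63665476, minus strand) encodes the SMAD that carries the TGF-beta signal from the receptor to the nucleus. In vehicle cultures of mice 1 to 4 it was at 7.32, 5.96, 6.42 and 6.40 CPM and in bilirubin cultures at 7.28, 6.03, 7.80 and 6.00 CPM. The groups overlapped and the mice split evenly in direction. The log2 fold change was 0.05 ± 0.10 (SE), and it ranged from -0.27 to 0.10 over the alternative analyses without a call in any. The lowest value came with an offset for transcript length. A single transcript took 49.3%, 0%, 25.8% and 38.3% of the *Smad3* TPM in vehicle cultures and 0% in all bilirubin cultures, but it rested on 35, 0, 11 and 19 reads. These read numbers are small, and the transcript split of *Smad3* cannot be read as a difference between the groups from them.

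*Smad6* (ENSMUSG00000036867, chr9:63860341-63929793, minus strand) encodes an inhibitory SMAD known mainly for restraining BMP signals. Vehicle values were 51.7, 51.6, 51.2 and 53.7 CPM in mice 1 to 4, a spread of 2.18% (coefficient of variation), and bilirubin values were 61.5, 44.0, 50.3 and 54.9 CPM, a spread of 14.0%. Mice 1 and 4 lay above and mice 2 and 3 below all vehicle cultures, so the bilirubin group straddled the vehicle group. The log2 fold change was 0.01 ± 0.07 (SE), and its sign changed with the analysis, between -0.07 and 0.09. Practically all *Smad6* TPM, at least 99.4% in every library, came from a single transcript.

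*Smad7* (ENSMUSG00000025880, chromosome 18, plus strand) encodes the inhibitory SMAD that blocks the TGF-beta receptor and is itself a target of the pathway. It was at 45.0, 46.2, 44.2 and 40.6 CPM in the vehicle cultures of mice 1 to 4 and at 29.8, 31.8, 29.6 and 24.8 CPM in the bilirubin cultures. All bilirubin cultures were below all vehicle cultures with a wide gap, between 31.8 and 40.6 CPM. Each mouse showed a log2 difference between -0.54 and -0.71, and the fit gave -0.60 ± 0.05 (SE), a change of -34.2%. The inhibitory SMADs thus had different values in the same libraries. Their TPM ratio, *Smad6* over *Smad7*, was 1.16 to 1.57 in vehicle and 1.91 to 2.79 in bilirubin cultures, ranges that did not overlap. Transcript shares of *Smad7* varied too widely between replicates to compare, with the main transcript at 66.1% to 82.5% in vehicle and 68.0% to 89.7% in bilirubin cultures.

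**Figure D3:**
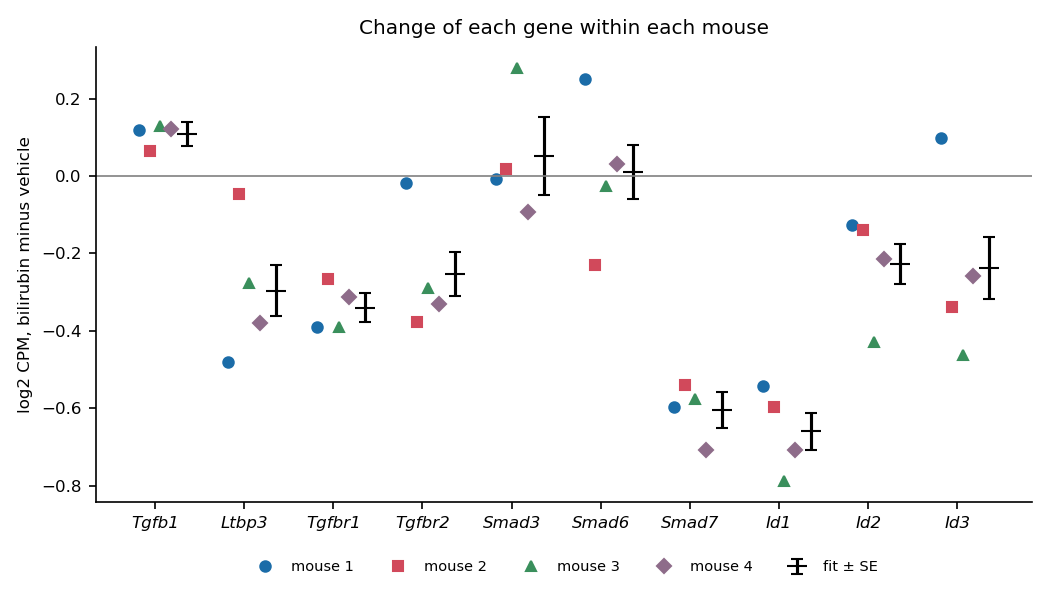
Change of each gene within each mouse. The y axis is the log2 CPM of the bilirubin culture minus that of the vehicle culture, symbols are the 4 mice, and the black bar is the fitted log2 fold change with its SE. *Smad7* and *Id1* lie between -0.54 and -0.79 in every mouse, whereas mouse 1 stands near or above 0 for *Tgfbr2*, *Smad6* and *Id3*.

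*Id1* (ENSMUSG00000042745, chr2:152566218-152579544, plus strand) is a textbook direct target of BMP signals, and its protein inhibits basic helix-loop-helix factors. Vehicle cultures of mice 1 to 4 had 105, 106, 112 and 106 CPM and bilirubin cultures had 72.4, 70.3, 65.1 and 64.9 CPM. The groups were far apart, with no value between 72.4 and 105 CPM. Log2 differences within mice were -0.54, -0.60, -0.79 and -0.71, and the fit gave -0.66 ± 0.05 (SE), a change of -36.7%. The main *Id1* transcript held 94.8% to 97.5% of TPM in every library.

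*Id2* (ENSMUSG00000020644, chr12:25143798-25147282, minus strand) encodes the most abundant ID transcript of these cells. It stood at 249, 255, 252 and 254 CPM in the vehicle cultures of mice 1 to 4 and at 228, 232, 187 and 219 CPM in the bilirubin cultures. The vehicle values were tight and all above the bilirubin values, of which mouse 3 was the lowest. The log2 fold change was -0.23 ± 0.05 (SE), with -0.13 and -0.14 in mice 1 and 2, -0.43 in mouse 3 and -0.21 in mouse 4. The TPM ratio of *Id2* to *Id1* was 1.59 to 1.70 in vehicle and 2.04 to 2.39 in bilirubin cultures, without overlap.

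*Id3* (ENSMUSG00000007872, chr4:135870808-135873066, plus strand), another member of the family, had vehicle levels of 80.3, 71.3, 77.1 and 80.8 CPM in mice 1 to 4, and its bilirubin levels were 86.0, 56.4, 56.0 and 67.5 CPM. Mouse 1 was the exception again, with a bilirubin culture above all vehicle cultures, and the bilirubin cultures of the other mice were below all vehicle cultures. The log2 difference was 0.10 in mouse 1 and between -0.26 and -0.46 in the others, and the fitted -0.24 ± 0.08 (SE) was not called. Without mouse 1 the fitted value was -0.36, and *Id3* was then called, as it was without the filter on low counts. A second *Id3* transcript held 6.14% to 15.5% of TPM in vehicle and 7.27% to 16.1% in bilirubin cultures, highest in mouse 1 in both groups. The TPM ratio of *Id1* to *Id3* was 1.74 to 2.06 in vehicle and 1.09 to 1.70 in bilirubin cultures, again without overlap.

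The start regions of *Id2* and *Id3* are shown as those of textbook SMAD target genes, with the same meaning of capitals, 5′ to 3′ (RefSeq, GRCm38.p6). The *Id2* window is chr12:25096043-25096342 on the minus strand and the *Id3* window is chr4:136143572-136143871 on the plus strand:
*Id2*: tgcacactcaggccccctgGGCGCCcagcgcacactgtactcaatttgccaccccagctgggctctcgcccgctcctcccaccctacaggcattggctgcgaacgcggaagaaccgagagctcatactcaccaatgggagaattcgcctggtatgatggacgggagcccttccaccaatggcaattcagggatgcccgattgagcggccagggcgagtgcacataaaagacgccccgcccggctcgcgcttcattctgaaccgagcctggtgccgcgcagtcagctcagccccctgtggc
*Id3*: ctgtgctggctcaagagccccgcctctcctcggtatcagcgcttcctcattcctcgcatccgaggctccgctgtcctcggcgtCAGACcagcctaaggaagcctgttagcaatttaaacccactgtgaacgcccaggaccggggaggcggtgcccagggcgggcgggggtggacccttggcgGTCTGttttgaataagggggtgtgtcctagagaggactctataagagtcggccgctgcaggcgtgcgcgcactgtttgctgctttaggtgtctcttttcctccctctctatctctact

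*Id2* had 1 GGCGCC at 231 bases before the start, and *Id3* had 2 matches to CAGAC or its complement at 167 and 68 bases before the start. The windows had 63.3% and 60.0% G and C, against a median of 52.7% over all windows.

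**Figure D4:**
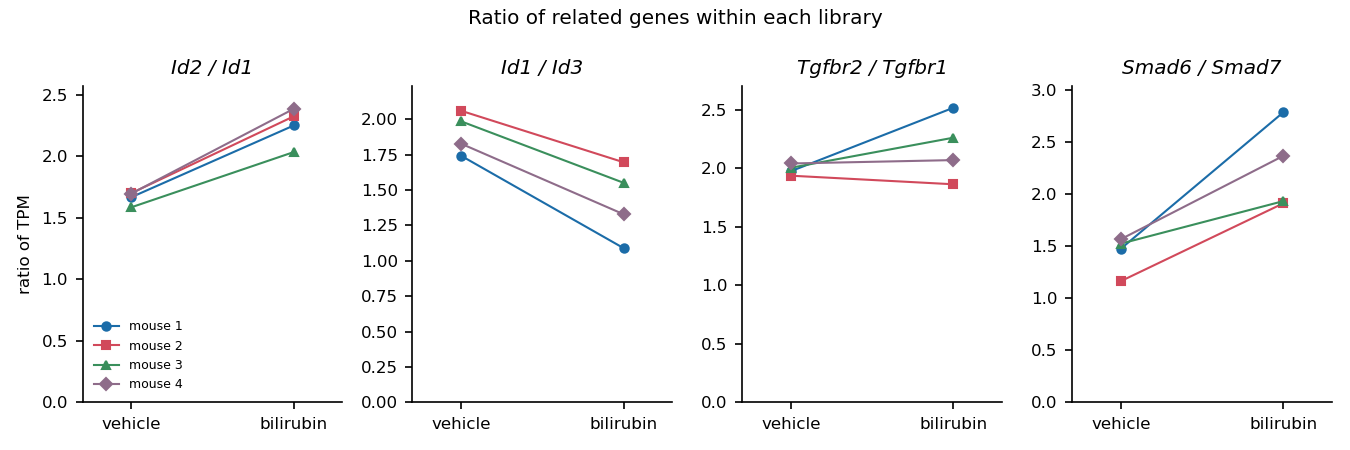
Ratios of related genes within each library. The y axis is the ratio of TPM from 0, each line joins the cultures of 1 mouse, and each panel has its own scale. *Id2* over *Id1* and *Smad6* over *Smad7* are higher and *Id1* over *Id3* is lower in every bilirubin culture, without overlap of the groups, whereas *Tgfbr2* over *Tgfbr1* overlaps.

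The mice did not contribute alike. Over the 10 genes the median size of the log2 difference was 0.19, 0.25, 0.34 and 0.29 in mice 1 to 4. Mouse 1 had the smallest difference for 5 of the 10 genes and mouse 3 the largest for 5. *Tgfbr2*, *Smad6* and *Id3* shared a high bilirubin value in mouse 1. That culture also stood apart from the other bilirubin cultures over the whole library, so the high value is not particular to these genes. For *Id3* and *Tgfbr2* the Pearson correlation of log2 CPM over the 8 libraries was 0.87. *Id1* and *Smad7* correlated at 0.96 over the same 8 libraries. These correlations share the group difference and the libraries, and are given as a description.

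As a further description, the tested genes with the closest pattern over the 8 libraries were found by Pearson correlation of log2 CPM. For *Tgfb1* they were *Cxcl16*, *Rassf4* and *Marco* (0.990, 0.990 and 0.988), the last a scavenger receptor that went from 7.23 to 98.9 CPM. For *Tgfbr2* they were *Gab3*, *Rxra* and *Arl4c* (0.995, 0.994 and 0.993). For *Smad7* they were *Runx2*, *Thbs1* and *Ccnd2* (0.991, 0.988 and 0.979), and for *Id1* they were *Lrp12*, *Rasgrp3* and *Zranb3* (0.996, 0.992 and 0.990). A close pattern did not mean a like size of difference, since the log2 fold change was 3.70 for *Marco* against 0.11 for *Tgfb1*.

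The other genes of the pathway were taken from 8 lists of 101 genes in all, of which 75 were tested. Of these, 19 passed the test in edgeR, 4 higher and 15 lower with bilirubin, or 25.3% of the tested genes, beside 7.53% over all tested genes. The median log2 fold change was -0.12, and 54 of the 75 values were negative. The lists were put together with earlier results of these data known, and *Gas6*, *Pros1* and *Mertk* were picked by the study from these samples, so the count is no independent evidence of a direction. Leaving out mice 1 to 4 in turn gave 26, 11, 8 and 9 such genes. *Itgav*, *Thbs1*, *Smurf1*, *Pmepa1*, *Tgfbi*, *Cdkn1a*, *Cx3cr1* and *Gas6* were called in all 12 alternative analyses.

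Among ligands and their extracellular control, 4 of 18 tested genes fell and none rose in edgeR, DESeq2 or limma-voom, with 1 higher gene at an unadjusted p under 0.05 in edgeR. This was the ligand gene *Inhba*, which was low, with 7 counts in its lowest library. Its log2 fold change was 1.21 ± 0.50 (SE, edgeR adjusted p = 0.219). *Inhba* was higher in 3 of 4 mice, and without mouse 1 its edgeR adjusted p was 0.00571. *Gdf15*, a distant member of the TGF-beta family, was low and fell from 4.09 ± 0.56 to 1.98 ± 0.66 CPM (SD, n = 4), with a log2 fold change of -1.08 ± 0.18 (SE) and an adjusted p of 0.00883 in edgeR. *Thbs1*, whose product thrombospondin can release TGF-beta from its latent form, fell from 41.4 ± 7.0 to 17.2 ± 3.8 CPM (log2 fold change -1.28 ± 0.06, edgeR adjusted p = 3.06e-05). *Itgav*, the alpha chain of integrins that pull latent TGF-beta open, fell from 427 ± 14 to 285 ± 29 CPM (-0.59 ± 0.05, edgeR adjusted p = 2.94e-04). *Furin*, the protease that cuts the TGF-beta precursor, fell less (-0.18 ± 0.03, edgeR adjusted p = 0.0154). Of the integrin beta chains in the list, *Itgb6* was at 0 CPM in every library and *Itgb8* at most at 0.449 CPM, and neither was tested. *Nrros*, which anchors latent TGF-beta on myeloid cells, was at 181 ± 4.9 and 167 ± 15 CPM (edgeR adjusted p = 0.23). Without mouse 3 or 4 the adjusted p of *Gdf15* was 0.0636 and 0.0529, without mouse 2, 3 or 4 that of *Furin* was 0.0674 to 0.125 (0.0606 without the mouse as a block, 0.358 with an offset for length), and without mouse 1 that of *Nrros* was 0.00586. The low ligand *Gdf3* (2.71 ± 0.89 and 2.76 ± 0.97 CPM) was not called (edgeR adjusted p = 0.96).

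Of 11 other receptors and co-receptors, *Bmpr2*, which binds BMP ligands, was the single one called. It fell from 101 ± 7.8 to 89.2 ± 5.9 CPM (log2 fold change -0.17 ± 0.04, edgeR adjusted p = 0.0268), with overlapping groups and an adjusted p of 0.0652 to 0.166 without mouse 2, 3 or 4, 0.179 without the block and 0.0769 with the length offset. *Acvrl1*, another receptor of the family, was at 84.3 ± 4.0 and 85.5 ± 11 CPM (edgeR adjusted p = 0.95). None of the 5 other SMAD genes was called by edgeR, DESeq2 or limma-voom, 2 of them had an unadjusted p under 0.05 in edgeR, and *Smad2* was at 52.8 ± 2.3 and 54.3 ± 2.5 CPM (edgeR adjusted p = 0.66). Of 16 intracellular regulators 1 rose and 3 fell. *Smurf1*, a ubiquitin ligase that targets SMADs and receptors, rose from 49.5 ± 3.8 to 61.5 ± 3.6 CPM (0.32 ± 0.04, edgeR adjusted p = 0.00366). *Pmepa1*, an inhibitor induced by TGF-beta, fell from 11.2 ± 1.3 to 6.42 ± 1.5 CPM (-0.81 ± 0.11, edgeR adjusted p = 0.00267). The ubiquitin ligase gene *Wwp1* (-0.49 ± 0.09, edgeR adjusted p = 0.0113) and the co-repressor gene *Skil* (-0.18 ± 0.04, edgeR adjusted p = 0.0316) fell too, with 0.0657 to 0.199 without mouse 2, 3 or 4, and *Skil* had 0.175 without the block. The related co-repressor *Ski* was at 213 ± 8.1 and 194 ± 26 CPM (edgeR adjusted p = 0.18, and 0.00313 without mouse 1).

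Of 13 other target genes 2 rose and 2 fell. *Tgfbi*, a matrix protein gene named for its induction by TGF-beta, rose from 173 ± 5.0 to 221 ± 19 CPM (log2 fold change 0.35 ± 0.04, edgeR adjusted p = 0.00185), and *Junb*, an AP-1 factor gene, rose from 107 ± 6.4 to 139 ± 20 CPM (0.36 ± 0.06, edgeR adjusted p = 0.0112). *Cdkn1a*, which encodes the cell cycle inhibitor p21, fell from 227 ± 7.6 to 182 ± 8.5 CPM (-0.32 ± 0.04, edgeR adjusted p = 0.00126), and *Bhlhe40* fell from 84.2 ± 6.1 to 66.5 ± 11 CPM (-0.35 ± 0.06, edgeR adjusted p = 0.00665). Thus targets with opposite directions occurred in the same libraries as the lower *Id1* and *Smad7*. Without mouse 3 or 4 the adjusted p of *Junb* was 0.0562 and 0.0616, and that of *Bhlhe40* was 0.0659 without mouse 3, 0.0793 without the block and 0.0510 with the length offset.

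Of 10 tested genes known to depend on TGF-beta in microglia or other mononuclear phagocytes, 4 fell and 1 rose. *Cx3cr1*, the fractalkine receptor, fell from 188 ± 21 to 93.0 ± 9.2 CPM (log2 fold change -1.02 ± 0.06, edgeR adjusted p = 5.00e-05), and *Gas6*, a bridging ligand for dead cells, fell from 284 ± 34 to 142 ± 57 CPM (-1.07 ± 0.12, edgeR adjusted p = 0.00114). *Fcrls* fell by 1.68 ± 0.39 on the log2 scale (edgeR adjusted p = 0.0372), with 9.55 CPM in the bilirubin culture of mouse 1 and 1.07 to 1.62 CPM in the others. Another bridging ligand, *Pros1*, fell as well (-0.34 ± 0.06, edgeR adjusted p = 0.0168), whereas *Tmem119* rose, from 8.13 to 10.1 CPM in vehicle to 10.4 to 13.0 CPM in bilirubin cultures (0.41 ± 0.10, edgeR adjusted p = 0.0410). The study picked *Gas6* and *Pros1* from these samples, so their p-values here are no independent evidence. *Olfml3* was at 86.9 ± 2.8 and 91.0 ± 13 CPM (edgeR adjusted p = 0.77). Of the 3 E protein genes whose products ID proteins bind, *Tcf4* fell (-0.24 ± 0.06, edgeR adjusted p = 0.0423) and *Tcf12* was at 72.5 ± 1.4 and 76.2 ± 2.2 CPM (edgeR adjusted p = 0.33). Without mouse 2, 3 or 4 the adjusted p of *Fcrls*, *Pros1*, *Tmem119* and *Tcf4* was 0.0912 to 0.235, and without mouse 1 the log2 fold change of *Fcrls* was -2.39. *Fcrls* was not called by limma-voom either (adjusted p = 0.112). Without the block the adjusted p was 0.310 for *Fcrls*, 0.0578 for *Pros1* and 0.118 for *Tcf4*, and with the length offset it was 0.0838, 0.0510 and 0.173 for these genes and 0.0769 for *Tmem119*.

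**Figure D5:**
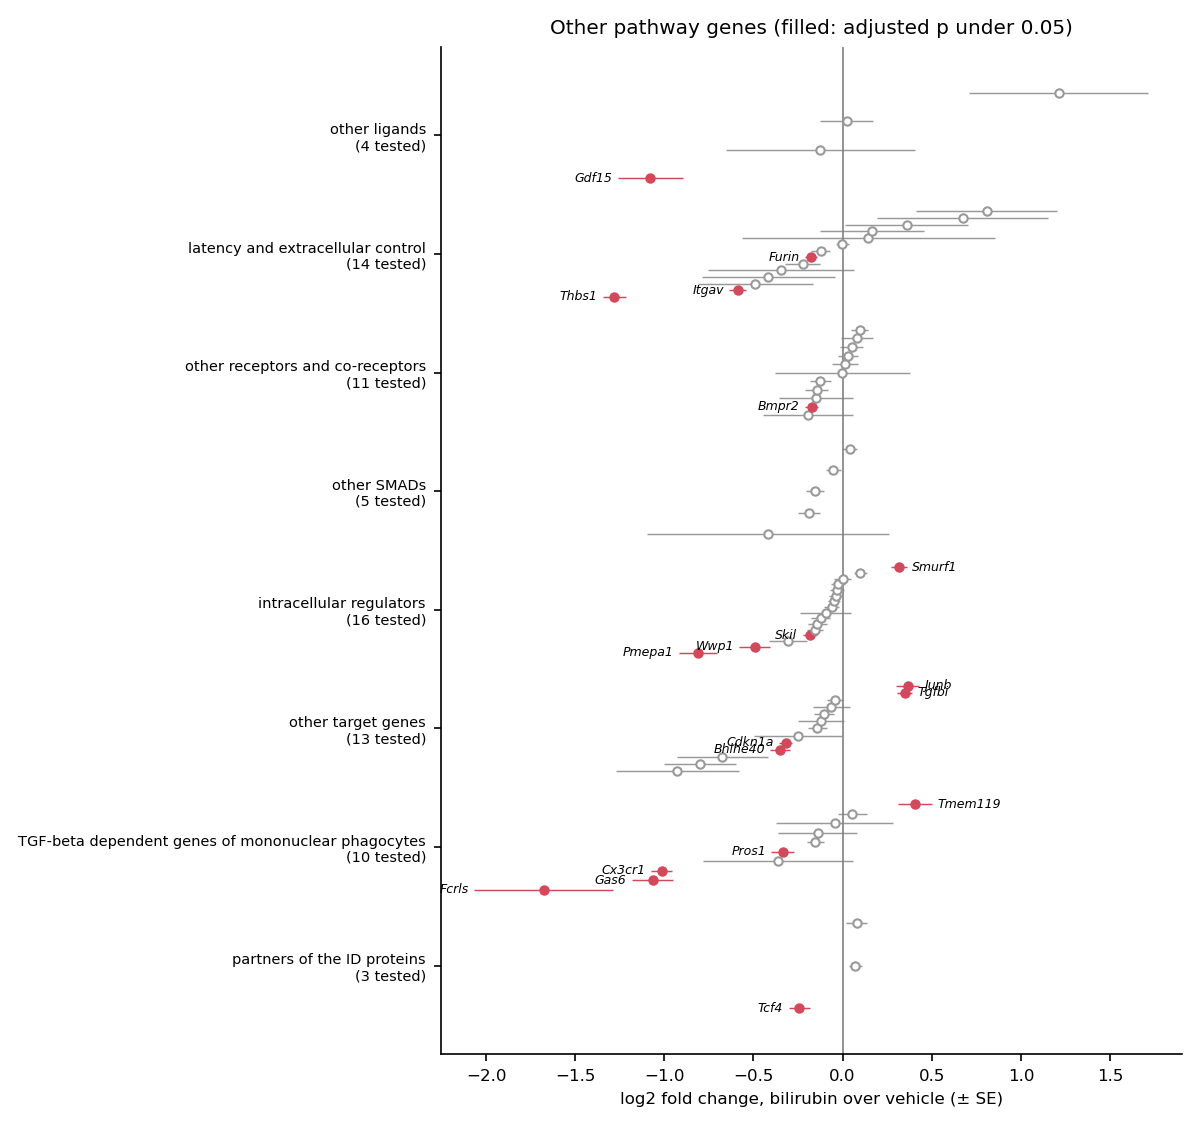
Other pathway genes by list. The x axis is the log2 fold change of bilirubin over vehicle with its SE, each point is 1 tested gene, and filled points with a name had an adjusted p under 0.05 in edgeR. Of 75 genes, 15 have filled points to the left and 4 to the right of 0, and *Ski* is drawn in both of its lists.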

How the data were processed

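RNA was measured in 8 libraries of BMDM, a vehicle and a bilirubin culture from each of 4 mice. Per the labels and methods, the authors trimmed reads (Trim Galore 0.6.7, cutadapt 3.4), aligned them with STAR 2.7.9a to GRCm39 and quantified transcripts with Salmon 1.10.1. The authors deposited a gene table of estimated counts (expected counts), with no scaling for depth, and a table per library of the TPM, estimated counts and effective lengths of 142434 transcripts. Such counts share out reads between overlapping or alike transcripts by a model. Every column was matched to a sample, and 0 were left out.

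Rounded counts were fitted with edgeR 4.0.16 under R 4.3.3 (TMM scaling, filterByExpr with at least 10 counts and 15 in total, quasi-likelihood test, treatment with the mouse as a block, Benjamini-Hochberg threshold 0.05). Log2 CPM within mice used a prior count of 2. The mouse pairs the cultures because both came from the same animal and the study's methods use it as a covariate. Deviations of same-mouse cultures correlated at 0.11, 0.13, 0.11 and -0.01, against at most 0.08 between mice. At a depth of 34142781 to 47071714 counts, *Smad3* had 218 to 348 counts and the other 9 genes at least 998 in every library. How much of the spread between libraries was counting noise was not tested. With the mouse as a block, the p-values set the mean difference between the treatments against its variation over these 4 animals. The fit estimates that variation for each gene with information from all tested genes. Each animal gave a single culture per treatment, so variation of animals and of cultures cannot be told apart. The test was checked on simulated data.

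Alternatives were no block, DESeq2 1.42.0, limma 3.58.1 as voom, DESeq2 size factors, library size alone, no filter, a CPM above 1 in 4 libraries, a length offset, and leaving out each mouse. The members and lists were chosen with earlier results of these data known. Genes named were the 10 members, every other pathway gene called, the highest uncalled one of each list by mean CPM, and the 3 closest by correlation to *Tgfb1*, *Tgfbr2*, *Smad7* and *Id1*. *Itgb6* and *Itgb8* were named in addition, for their level beside *Itgav*, and *Inhba* as the uncalled ligand gene that was higher. Gene positions are from GENCODE on GRCm39, and transcripts are named where they reached 5% of TPM.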

Additional observations from a re-analysis of the deposited data

Results flagged for a closer look

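In groups of 4, the gap of the highest or lowest library to the next was compared with the range of the group (Dixon's test), for 36 genes and 72 groups. Chance flags about 1 in 20 groups, and 7 were flagged here. The bilirubin culture of mouse 1 was high for *Tgfbr2* (355 CPM, others 268 to 274) and for *Pros1* (36.1 CPM, others 27.0 to 28.2). The vehicle culture of mouse 3 was high for *Id1* (112 CPM, others 105 to 106) and low for *Tcf4* (69.3 CPM, others 72.9 to 73.6). The bilirubin culture of mouse 3 was high for *Smurf1* (66.9 CPM, others 59.4 to 60.5), and that of mouse 2 for *Bhlhe40* (83.2 CPM, others 60.1 to 61.6). The vehicle culture of mouse 2 was low for *Gdf3* (1.40 CPM, others 2.94 to 3.39). For *Id1* the flagged library was a vehicle culture already above all bilirubin cultures, and for *Tgfbr2* it was the culture that made the groups overlap.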

How the results depend on the processing

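Over the 10 pathway genes and 12 alternatives, 119 fold changes moved by less than the spread between mice and 1 moved by more, that of *Smad3* with the offset for transcript length (-0.27). Genes called over all tested genes numbered 1033. They were 686 without the replicate block by mouse, 1692 without the filter, 579 with the length offset and 377 to 1910 with a mouse left out. The other pathway genes called were 19, and 12 without the block, 12 with the length offset and 8 to 26 with a mouse left out. Of the 10 genes 6 were called, and 4 without the block (*Tgfbr2* and *Id2* were lost) and 3 to 7 with a mouse left out. With library size alone 527 genes were called higher and 556 lower, against 616 and 417. Among the 10 genes and the other pathway genes named, signs changed for 5 uncalled genes. *Smad3* was at -0.27 with the length offset and -0.03 without mouse 3. *Smad6* was at -0.02 with library size alone and -0.07 without mouse 1. *Gdf3* was at -0.00335 with library size alone and -0.0503 to 0.0817 with a mouse left out, negative without mouse 4. *Acvrl1* was at -0.0123 with library size alone and -0.0328 to 0.114 with a mouse left out, negative without mouse 2, 3 or 4. *Olfml3* was at -0.0153 to 0.157 with a mouse left out, negative without mouse 4. Other uncalled genes of the pathway lists, not named here, changed sign as well. For the 19 called pathway genes, 184 values stayed past the threshold under the alternatives and 44 did not. The cause of these differences was not tested. *Inhba*, *Fcrls*, *Gdf3* and *Gdf15* rested on the fewest counts of the tested pathway genes named (lowest library 7, 43, 50 and 60).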
